A study of Rattus norvegicus with 300 samples.

Results

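The translation initiation factor genes described here are all genes whose symbol starts with Eif followed by a digit, with the Y-linked Eif2s3y left out. They number 51 of 17337 gene symbols counted in rat brain, and the rule reads the symbol alone, with no measured value. By name they fall into 5 eIF1 genes, 14 eIF2 genes, 13 eIF3 genes, 14 eIF4 genes, 4 eIF5 genes and 1 eIF6 gene. The eIF2 genes comprised 3 subunits of eIF2 (Eif2s1, Eif2s2, Eif2s3x), 5 subunits of its exchange factor eIF2B, 4 kinases that phosphorylate eIF2 (Eif2ak1 to Eif2ak4), Eif2a and Eif2d. The eIF4 genes comprised 3 eIF4A helicases, Eif4b and Eif4h, 3 cap-binding eIF4E genes, 4 genes for proteins that bind eIF4E (Eif4ebp1, Eif4ebp2, Eif4ebp3, Eif4enif1) and the scaffolds Eif4g2 and Eif4g3. Eif4g1 was not analysed here.

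Total RNA of 10 brain regions was sequenced in male Long Evans rats, 60 days old, after 3 weeks of treatment through the drinking water. The 6 treatments were FT, Bupropion, Desipramine, Probiotics, Maltodextrin and Control. Per kg of body weight and day, Bupropion was dosed at 15 mg and Desipramine at 7.5 mg, Maltodextrin was at 10 g/L, and Control was water alone. The group labels do not spell out FT. Among the drugs in the protocol, Fluoxetine, dosed at 13 mg/kg/day, has no group named after it. Each region and treatment held 5 libraries, making 300, and the regions are called as the labels abbreviate them: CGC, mPOA, NACShell, PLC, Raphe, BLA, dorDG, ILC, LConly and venDG. Punches of frozen sections were pooled by region before extraction, and the sources used here do not state how many rats made up a pool. The p-values therefore rest on the spread among these libraries alone, which may be technical. The labels give no batch, so a batch that followed treatment cannot be told apart from it.

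The median library held 9232563 counts in total, the smallest 198260 and the largest 18310687, and 4 libraries held fewer than 1000000. Markers of the labelled region were checked first. In FT, the summed level of Dbh and Slc6a2, which mark the noradrenaline cells of the locus coeruleus, was 0.803 counts per 1000000 (CPM) in LConly and 339 CPM in ILC, while in the other 5 treatments it lay between 86.1 and 368 CPM in LConly and at or below 1.62 CPM in ILC. Cortical markers (Tbr1, Slc17a7, Neurod6) in FT likewise summed to 640 CPM in LConly and 35.6 CPM in ILC. Markers of choroid plexus (Ttr, Kl, Folr1, Otx2 and others) summed to 7023 CPM in FT BLA and to between 31.8 and 611 CPM in the other 5 BLA groups, and in venDG they ran between 729 CPM in FT and 16780 CPM in Bupropion. The dentate markers Prox1 and Calb1 summed to 635 CPM in Probiotics dorDG and to between 261 and 338 CPM in the other 5 dorDG groups. BLA, dorDG, ILC, LConly and venDG were left out of the main comparisons, a choice made with earlier results of these data known, and counts with all 10 regions summed are given further on. The main comparisons rest on the 150 libraries of CGC, mPOA, NACShell, PLC and Raphe. In those 5 regions the markers went with the label: Tph2, Slc6a4 and Fev, of serotonin neurons, summed to between 630 and 1107 CPM in the 6 Raphe groups and to at most 5.22 CPM in the 24 groups of the other 4 regions. The FT group of NACShell also held 214 CPM of the mPOA markers Oxt, Gal, Esr1 and Six3, where the other 5 NACShell groups held between 7.46 and 20.0 CPM.

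Initiation factors bring the ribosome, the initiator tRNA and the mRNA together. eIF2 carries the initiator tRNA to the small ribosomal subunit, eIF2B recharges eIF2 with GTP, and phosphorylation of the alpha subunit (Eif2s1) by any of the 4 kinases turns eIF2 into an inhibitor of eIF2B and lowers protein synthesis. eIF3 is the large scaffold on the small subunit, and the eIF4 factors bind the cap through Eif4e, unwind the leader of the mRNA through the eIF4A helicases and join both to eIF3 through eIF4G. Proteins of the Eif4ebp family block Eif4e until the kinase mTOR phosphorylates them. In neurons, local control of both steps is known for its part in lasting synaptic change.

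Promoter windows are shown for 8 members on which the results below turn, 6 for their changes with treatment, Eif2ak3 for its fall after Bupropion and Eif5a2 for its level in Raphe. They come from RefSeq, on the rat build GRCr8, and cover the 100 bases before the annotated start, 5′ to 3′ on the gene's own strand. Capitals mark matches to the motifs searched, which were the GC box GGGCGG, the CCAAT box, TATAAA, the E-box CACGTG, the amino acid response core TGATGNAA, TGACGTCA and the ETS core CCGGAAG. Both strands were read, and matches may overlap. Eif4a1 lies at chr10:54888603-54888702 (minus strand), Eif4a2 at chr11:91275324-91275423 (minus), Eif4ebp2 at chr20:29942923-29943022 (minus), Eif6 at chr3:164791411-164791510 (minus), Eif5a at chr10:55143222-55143321 (minus), Eif2s2 at chr3:163855571-163855670 (minus), Eif2ak3 at chr4:104363772-104363871 (plus) and Eif5a2 at chr2:113657734-113657833 (plus), each given for the window printed.
Eif4a1: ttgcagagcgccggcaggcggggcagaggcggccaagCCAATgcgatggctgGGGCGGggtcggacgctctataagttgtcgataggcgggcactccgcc
Eif4a2: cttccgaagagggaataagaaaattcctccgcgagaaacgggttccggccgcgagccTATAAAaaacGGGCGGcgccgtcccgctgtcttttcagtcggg
Eif4ebp2: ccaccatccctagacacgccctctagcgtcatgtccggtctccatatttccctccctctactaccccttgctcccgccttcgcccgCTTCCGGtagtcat
Eif6: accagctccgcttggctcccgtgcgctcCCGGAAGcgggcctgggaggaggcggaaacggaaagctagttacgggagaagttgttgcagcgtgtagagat
Eif5a: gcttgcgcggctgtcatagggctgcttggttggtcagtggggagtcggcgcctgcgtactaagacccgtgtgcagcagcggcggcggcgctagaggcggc
Eif2s2: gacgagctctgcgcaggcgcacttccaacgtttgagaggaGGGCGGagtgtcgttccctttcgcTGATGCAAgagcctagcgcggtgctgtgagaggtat
Eif2ak3: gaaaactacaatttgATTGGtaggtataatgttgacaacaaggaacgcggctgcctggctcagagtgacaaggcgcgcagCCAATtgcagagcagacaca
Eif5a2: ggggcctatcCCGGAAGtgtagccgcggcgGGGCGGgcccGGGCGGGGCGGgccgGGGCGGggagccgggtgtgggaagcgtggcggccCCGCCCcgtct

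Of these windows, that of Eif4a2 held a TATAAA match and that of Eif2s2 the TGATGNAA core, while none of the motifs was found in the 100 bases of Eif5a. In Eif5a2, GC boxes stood side by side and in part overlapped. Windows were found for 45 of the 51 members. Over the 250 bases before the start, GGGCGG occurred in 29 of the 45 (64.4%), against 32.4% of all 27457 windows and 55.1% of the 10340 windows of tested genes. CCGGAAG occurred in 19 (42.2%), against 7.74% of all windows and 13% of those of tested genes. CACGTG was in 7 members (15.6%, against 5.79% and 7.72%), CCAAT in 14 (31.1%, against 34.3% and 34.8%), TATAAA in 2 (4.44%, against 13.1% and 7.61%), TGATGNAA in 2 (4.44%, against 3.27% and 1.91%) and TGACGTCA in 0 (against 1.7% and 2.74%). Members with CCGGAAG included Eif6, Eif3g and Eif4ebp2, and members with CACGTG included Eif5a, Eif5a2 and Eif4e.

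Expression was compared between each drug and Control, between Probiotics and Maltodextrin, and between Maltodextrin and Control, on counts of the 5 regions summed within each treatment replicate (n = 5 per group). Calls were made with edgeR's quasi-likelihood test where the p adjusted over all 13963 genes tested was under 0.05. All 51 members were tested. After FT, 21 members were called higher and 18 lower than in Control, where 28.3% and 30.4% of all genes were called higher and lower. After Bupropion, 23 were higher and 9 lower (24.3% and 26.1% of all genes). After Desipramine, 29 were higher and 15 lower (30.9% and 35.5%). After Probiotics, 5 were higher and 25 lower than in Maltodextrin (25.6% and 25.8%). Maltodextrin itself had 16 higher and 13 lower than Control (26.1% and 27.2%).

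Of the members called, more were higher than lower after Bupropion and Desipramine, and more were lower than higher after Probiotics. The median log2 change over the 51 members was 0.01 for FT, 0.08 for Bupropion, 0.14 for Desipramine, -0.12 for Probiotics and 0.07 for Maltodextrin. The medians over all genes tested in the same comparisons were -0.01, -0.01, -0.03, 0.01 and 0.02. These splits depend on the scaling and on the regions summed. With library totals in place of TMM factors, the median over all genes moved to 0.18 for FT, 0.18 for Desipramine, 0.10 for Probiotics and 0.10 for Maltodextrin. The members called were then 31 higher and 11 lower (47.5% and 14.8% of all genes) for FT, 35 higher and 10 lower (49.2% and 20.3% of all genes) for Desipramine, 14 higher and 12 lower (35.6% and 13.3% of all genes) for Probiotics and 29 higher and 8 lower (37.3% and 19.3% of all genes) for Maltodextrin. With all 10 regions summed, the members called were 17 higher and 25 lower (25.4% and 36.4% of all genes) for FT, 18 higher and 14 lower (22.2% and 36% of all genes) for Bupropion, 22 higher and 21 lower (25.9% and 44.8% of all genes) for Desipramine, 18 higher and 16 lower (33.8% and 22% of all genes) for Probiotics and 10 higher and 20 lower (17.5% and 31.1% of all genes) for Maltodextrin. In each of these cases the split of all genes called moved in the same direction as that of the members. Of the 174 calls of members over the 5 comparisons, 34 were not called with library totals and 140 kept their direction. The calls lost there were Eif1ad, Eif2b4, Eif2d, Eif3d, Eif3h, Eif4a3 and Eif4e after FT, Eif1ax, Eif3j, Eif4a3 and Eif5a2 after Bupropion, Eif2b1, Eif2b4, Eif2d, Eif2s1 and Eif4a3 after Desipramine, Eif1a, Eif1b, Eif2a, Eif2ak2, Eif2ak4, Eif2b2, Eif2b5, Eif2s3x, Eif3e, Eif3g, Eif3k, Eif4b and Eif4ebp3 after Probiotics, and Eif1ad, Eif2b4, Eif3g, Eif4e2 and Eif4ebp2 in Maltodextrin. With 10 regions summed, 131 calls kept their direction, 33 were not called and 10 were called with the opposite sign. Not called there were Eif1a, Eif2b4, Eif3b, Eif3l and Eif5a2 after FT, and Eif1ax, Eif2b3, Eif2s3x, Eif3b, Eif3j, Eif4a3 and Eif5b after Bupropion. Nor were Eif1a, Eif2b5, Eif3l and Eif5 after Desipramine, or Eif2a, Eif2ak1, Eif2b4, Eif2s2, Eif3e, Eif3k and Eif5 in Maltodextrin. After Probiotics the calls lost were Eif1a, Eif2ak2, Eif2b2, Eif2b5, Eif2s3x, Eif3e, Eif3g, Eif3k, Eif4e and Eif4e3. The opposite calls were Eif1ad and Eif3m after Bupropion, Eif2ak2, Eif3b and Eif3m after Desipramine, and Eif3m after Probiotics, and Eif2ak2, Eif2s3x, Eif3m and Eif4ebp2 in Maltodextrin. The drug and Maltodextrin comparisons share the Control libraries, and the last 2 comparisons share Maltodextrin, so a member low in Control enters 4 of them at once.

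**Figure D1:**
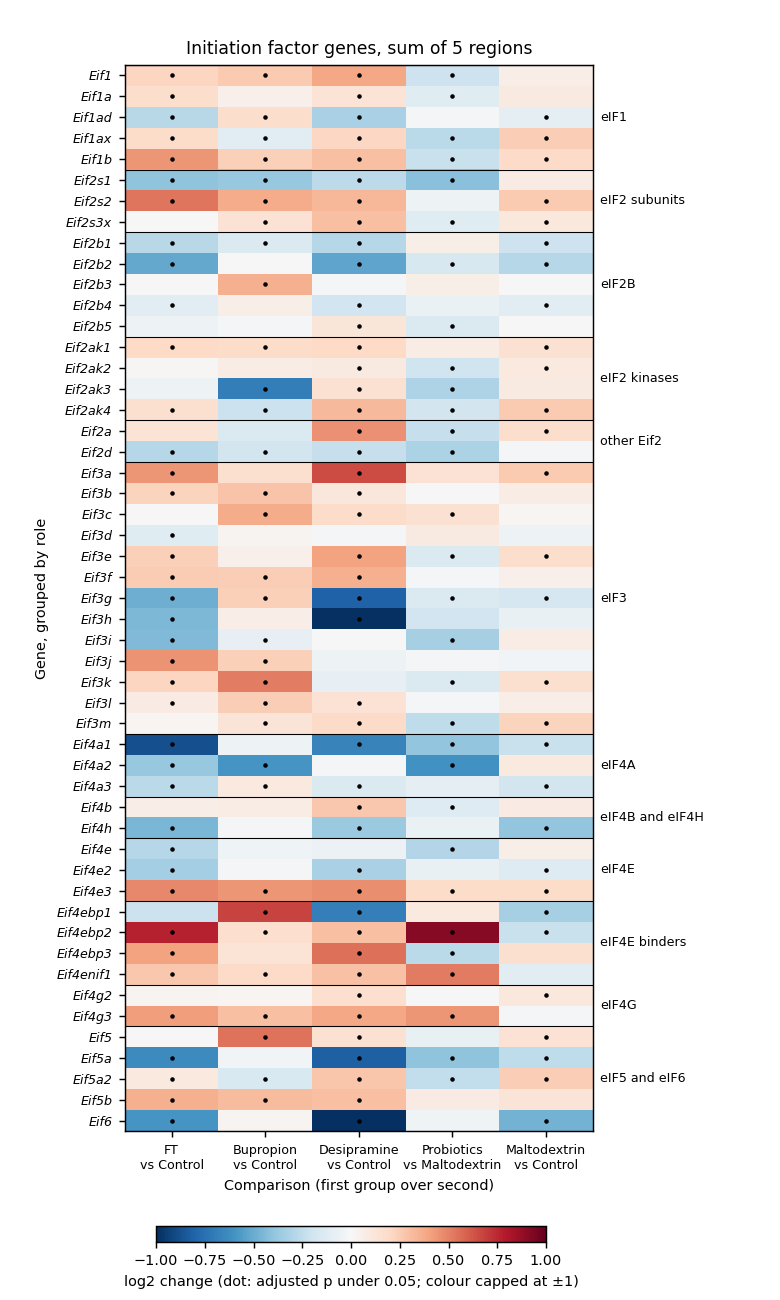
Log2 change of each of the 51 members (down the page, grouped by role) in the 5 comparisons on the sum of 5 regions (across), in colour, with the colour scale ending at 1 in either direction and calls at an adjusted p under 0.05 marked. Eif4a1 is lower after FT (-0.88) and Desipramine (-0.67), and Eif4ebp2 is higher after FT (0.77) and Probiotics (0.91).

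By family, the called members were counted in the same 5 comparisons, in which 24.3 to 30.9% of all genes were called higher and 25.8 to 35.5% lower. Many of these counts lie near those shares, and no difference between families was tested. For eIF3, of 13 genes, FT gave 7 higher and 4 lower, Bupropion 8 higher and 1 lower, Desipramine 7 higher and 2 lower, Probiotics 1 higher and 5 lower, and Maltodextrin 4 higher and 1 lower. For eIF2, of 14 genes, FT gave 3 higher and 5 lower, Bupropion 4 higher and 5 lower, Desipramine 8 higher and 5 lower, Probiotics 0 higher and 9 lower, and Maltodextrin 6 higher and 3 lower. For eIF4, of 14 genes, FT gave 5 higher and 6 lower, Bupropion 6 higher and 1 lower, Desipramine 7 higher and 5 lower, Probiotics 4 higher and 5 lower, and Maltodextrin 2 higher and 6 lower. In these 3 families the counts furthest from them were those of eIF3 after Bupropion, with a median change of 0.24, and of eIF2 after Probiotics. With library totals eIF3 after Bupropion was 7 higher and 1 lower and eIF2 after Probiotics 3 higher and 3 lower, and with 10 regions summed eIF3 after Bupropion was 5 higher and 2 lower and eIF2 after Probiotics 3 higher and 5 lower. Other counts turned too: with library totals eIF2 after FT was 8 higher and 3 lower and eIF3 after Probiotics 6 higher and 2 lower, and with 10 regions eIF3 after Desipramine was 4 higher and 6 lower and in Maltodextrin 1 higher and 4 lower.

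Levels below are CPM scaled by TMM factors and averaged over the 5 regions in each treatment replicate, with the SD over the 5 replicates. The summed eIF3 level was 1584 ± 48.2 CPM in FT, 1747 ± 22.3 in Bupropion, 1632 ± 12.1 in Desipramine, 1553 ± 14.8 in Probiotics, 1609 ± 20.4 in Maltodextrin and 1537 ± 16.1 in Control. The summed eIF2 level was 866 ± 75.01 CPM in FT, 857 ± 11.7 in Bupropion, 882 ± 11.5 in Desipramine, 795 ± 10.7 in Probiotics, 869.8 ± 8.45 in Maltodextrin and 809.5 ± 4.80 in Control. The summed eIF4 level was 2514 ± 104 CPM in FT, 2781 ± 47.5 in Bupropion, 2927 ± 41.1 in Desipramine, 2523 ± 41.3 in Probiotics, 3052 ± 71.1 in Maltodextrin and 3127 ± 49.01 in Control. Of the eIF4 genes, the 3 eIF4A helicases summed to 1230 ± 76.01 CPM in FT, 1400 ± 47.4 in Bupropion, 1533 ± 23.4 in Desipramine, 1225 ± 33.4 in Probiotics, 1749 ± 62.05 in Maltodextrin and 1794 ± 45.5 in Control. These sums were not tested, and they weigh genes by their counts. In bulk tissue, fewer cells of a type and less RNA per cell cannot be told apart.

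The eIF4A helicases, which unwind structure in the leader of the mRNA, fell in all 5 comparisons for at least 1 of their 3 genes. Eif4a1, the form known for its abundance in dividing cells, fell after FT, Desipramine, Probiotics and Maltodextrin, and Eif4a2, the form known for its abundance in brain, fell after FT, Bupropion and Probiotics. Eif4a1 stood at 319.9, 358, 337, 328 and 397 CPM in the 5 FT replicates and at 417, 395, 394, 405 and 410.4 CPM in Desipramine, against 649, 664, 628, 626 and 645 CPM in Control. All FT and Desipramine values lay below every Control value, and the log2 change was -0.88 (SE 0.049, adjusted p = 3.42e-15) for FT and -0.67 (SE 0.049, adjusted p = 9.93e-13) for Desipramine. In Bupropion it stood at 623, 574, 593, 609.5 and 668 CPM, which overlapped Control, with a log2 change of -0.05 (SE 0.048, adjusted p = 0.434) that did not pass the test. Eif4a1 was 414, 442, 394, 414 and 433 CPM in Probiotics, against 537, 530.2, 539, 531 and 596 CPM in Maltodextrin. Every Probiotics value was below every Maltodextrin value (log2 change -0.39, SE 0.049, adjusted p = 6.96e-08). Maltodextrin was itself lower than Control (log2 change -0.22, SE 0.048, adjusted p = 0.000366), with replicate 5 the highest of its group. With 10 regions summed the Probiotics change was -0.17, and with library totals the Maltodextrin change was -0.14.

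Eif4a2 was 720.3, 711, 674, 706 and 721 CPM in Bupropion, against 1142, 1077, 1069, 1049 and 1048 CPM in Control. The groups did not overlap, and the log2 change was -0.59 (SE 0.043, adjusted p = 3.02e-12). It was 945, 834, 786, 740.3 and 798 CPM in FT, again below all Control values (log2 change -0.38, SE 0.043, adjusted p = 1.05e-08), with replicate 1 nearest to Control. Eif4a2 was 747, 775, 734, 732 and 733 CPM in Probiotics, against 1116, 1139, 1128, 1106 and 1194 CPM in Maltodextrin (log2 change -0.61, SE 0.043, adjusted p = 1.05e-12), also without overlap. Desipramine averaged 1061 ± 24.4 CPM and Maltodextrin 1137 ± 34.5 CPM, against 1077 ± 38.4 CPM in Control (SD, n = 5 each), and neither passed the test. Bupropion therefore had Eif4a2 low with Eif4a1 near Control, and Desipramine had Eif4a1 low with Eif4a2 near Control. Whether those patterns differ was not tested. The third helicase gene, Eif4a3, known from the exon junction complex, changed by -0.27 for FT, 0.10 for Bupropion, -0.14 for Desipramine and -0.18 for Maltodextrin, each past the test, and stood at -0.09 for Probiotics, which did not pass it. The Maltodextrin change alone was called with library totals. Genes such as Eif4a1 can share reads with near-identical copies, and the sources used here do not say how shared reads were counted.

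**Figure D2:**
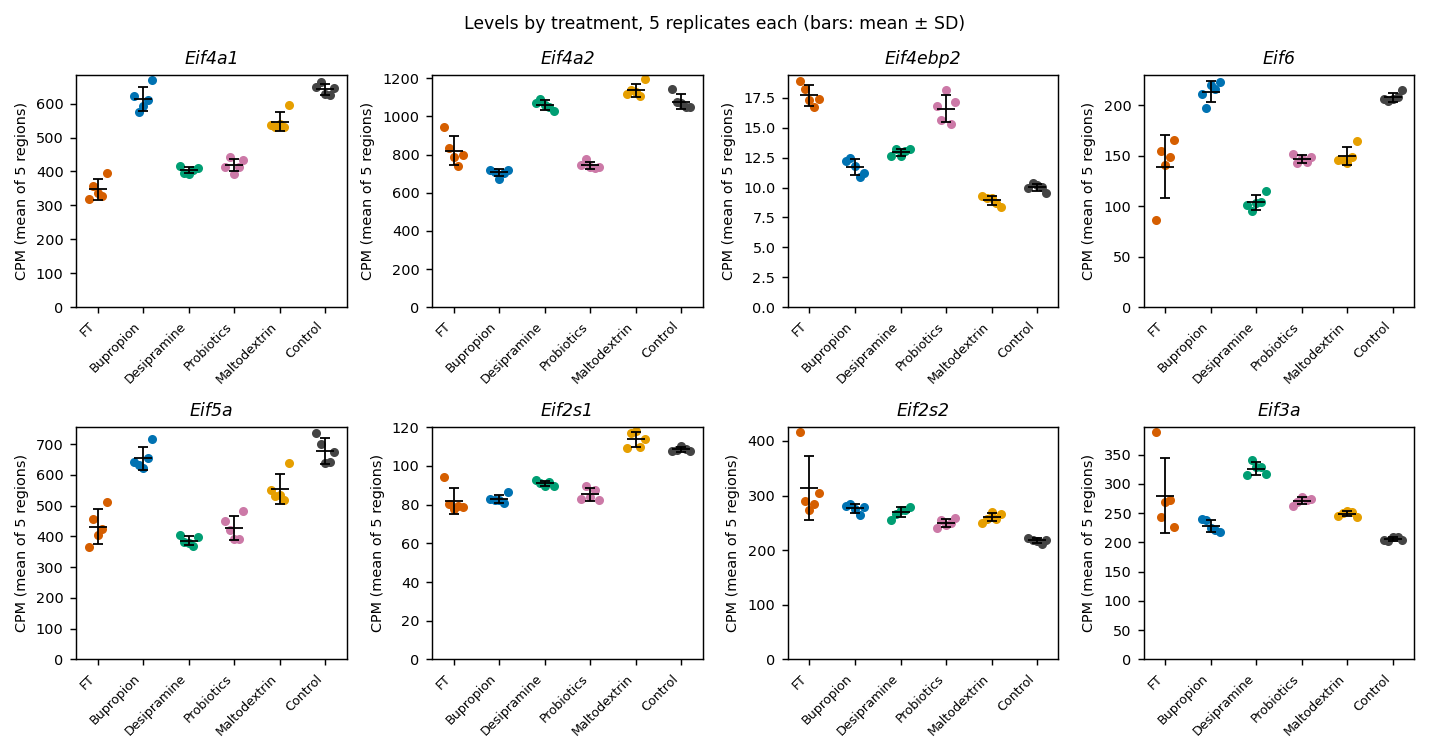
Level of 8 members in CPM, averaged over the 5 regions, in each of the 5 replicates of the 6 treatments, with mean and SD. Eif4a1 is lowest in FT (348 ± 30.7 CPM) and Eif4a2 in Bupropion (707 ± 19.2 CPM), and in Eif6, Eif2s2 and Eif3a 1 FT replicate lies far from the other 4.

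Helpers of the helicase moved with Eif4a1 in part. Eif4h, which stimulates eIF4A, averaged 245 ± 15.96 CPM in FT, 258 ± 3.67 in Desipramine, 256 ± 8.67 in Maltodextrin and 336 ± 11.9 in Control, and fell in all 3 (log2 changes -0.46, -0.37 and -0.39). After FT the log2 change was -0.27 with library totals, -0.24 with 10 regions summed and -0.28 against Control and Maltodextrin pooled, and after Maltodextrin -0.19 with 10 regions. Eif4b, with the same role, rose after Desipramine (0.27) and fell after Probiotics (-0.13). Of the scaffolds, Eif4g3 rose after all 3 drugs (FT 0.42, Bupropion 0.30, Desipramine 0.39) and after Probiotics (0.44, SE 0.035, adjusted p = 1.2e-11), and stood at -0.02 in Maltodextrin. Eif4g3 was 188 ± 2.12 CPM in Probiotics, against 139 ± 1.92 CPM in Maltodextrin. With library totals the Desipramine change was 0.60. Eif4g2, which supports initiation without the cap, rose after Desipramine (0.17) and Maltodextrin (0.11) and did not pass the test in the other 3 comparisons.

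The proteins that hold Eif4e back changed in opposite ways. Eif4ebp2, the main 4E-binding protein of neurons, rose most after FT and Probiotics, and Eif4ebp1 rose after Bupropion and fell after Desipramine. Eif4ebp2 stood at 18.9, 18.2, 17.3, 16.8 and 17.4 CPM in FT, against 9.99, 10.4, 10.2, 10.02 and 9.55 CPM in Control. It stood at 16.9, 15.6, 18.1, 15.3 and 17.1 CPM in Probiotics, against 9.30, 9.09, 9.12, 8.71 and 8.40 CPM in Maltodextrin. Neither pair of groups overlapped, and the log2 changes were 0.77 (SE 0.048, adjusted p = 4.6e-14) for FT and 0.91 (SE 0.049, adjusted p = 4.99e-15) for Probiotics. The changes after Bupropion (0.17) and Desipramine (0.30) passed the test and were smaller, and Maltodextrin had a lower level than Control (-0.22). The Maltodextrin change was -0.12 (adjusted p = 0.0884) with library totals and 0.13 (adjusted p = 0.011), the opposite sign, with 10 regions summed.

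Eif4ebp1 was 8.79, 8.21, 9.28, 8.87 and 9.21 CPM in Bupropion and 2.16, 3.41, 3.85, 2.58 and 3.48 CPM in Desipramine, against 4.82, 5.93, 5.35, 5.44 and 5.74 CPM in Control. Every Bupropion value lay above and every Desipramine value below Control, with log2 changes of 0.68 (SE 0.092, adjusted p = 3.88e-07) and -0.68 (SE 0.10, adjusted p = 1.35e-06). With 10 regions summed, the Bupropion change was 0.41. Maltodextrin was lower than Control (-0.33, SE 0.10, adjusted p = 0.00626), at 4.36 ± 0.439 against 5.46 ± 0.427 CPM, and -0.55 with 10 regions summed, while FT, at 4.57 ± 1.03 CPM, did not pass the test. Eif4ebp3, the third of this family, rose after FT (0.40) and Desipramine (0.55, SE 0.081, adjusted p = 7.84e-07), where it averaged 5.91 ± 0.935 CPM against 4.06 ± 0.172 CPM in Control, and fell after Probiotics (-0.27). Eif4enif1, which carries Eif4e into the nucleus and acts in mRNA silencing, was 17.1, 18.7, 18.1, 20.7 and 18.04 CPM in Probiotics, against 13.3, 12.8, 12.9, 13.4 and 13.1 CPM in Maltodextrin (log2 change 0.52, SE 0.054, adjusted p = 3.01e-09), without overlap. It also rose after FT (0.27), Bupropion (0.20) and Desipramine (0.30). Eif4ebp1 and Eif4ebp3 averaged 5.17 and 4.76 CPM, so their values rest on few counts per library.

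Among the cap-binding genes, Eif4e3, a divergent form with a known inhibitory role, rose in all 5 comparisons. It was 27.1, 20.8, 21.04, 20.4 and 19.2 CPM in FT, 19.4, 21.8, 20.5, 21.2 and 21.2 CPM in Bupropion and 19.03, 22.02, 22.8, 20.8 and 21.2 CPM in Desipramine, against 14.6, 15.6, 15.7, 16.6 and 14.6 CPM in Control. No drug group overlapped Control, and the log2 changes were 0.48 (SE 0.059, adjusted p = 4.7e-08), 0.44 (SE 0.058, adjusted p = 2.4e-07) and 0.47 (SE 0.059, adjusted p = 4.77e-08). After Probiotics it was 0.18 above Maltodextrin, which became 0.07 (adjusted p = 0.213) with 10 regions summed and 0.27 with library totals. Maltodextrin was 0.18 above Control. Eif4e itself, the cap-binding subunit, fell after FT (-0.29, 166 ± 13.6 against 203 ± 1.87 CPM) and Probiotics (-0.29, 172 ± 3.27 against 211 ± 3.83 CPM in Maltodextrin). The FT change was -0.10 (adjusted p = 0.0564) with library totals, and the Probiotics change -0.04 (adjusted p = 0.349) with 10 regions summed. Eif4e2, which represses translation, fell after FT (-0.34), Desipramine (-0.32) and Maltodextrin (-0.13).

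The subunits of eIF2 moved apart from each other. Eif2s1, the alpha subunit that the kinases phosphorylate, fell after all 3 drugs and after Probiotics, and Eif2s2, the beta subunit, rose after all 3 drugs and after Maltodextrin. Eif2s1 stood at 94.1, 80.1, 77.9, 79.1 and 78.8 CPM in FT, 83.1, 82.7, 82.3, 80.8 and 86.6 CPM in Bupropion and 92.5, 91.4, 89.9, 91.9 and 89.8 CPM in Desipramine, against 108, 108, 110.4, 109 and 108 CPM in Control. It stood at 82.9, 89.6, 84.03, 87.8 and 82.2 CPM in Probiotics, against 109, 117, 118, 109.9 and 114 CPM in Maltodextrin. None of these 4 pairs overlapped. The log2 changes were -0.40 (SE 0.037, adjusted p = 1.76e-10), -0.38 (SE 0.037, adjusted p = 1.25e-09) and -0.27 (SE 0.037, adjusted p = 3.1e-07) for the drugs and -0.42 (SE 0.037, adjusted p = 1.4e-10) for Probiotics. The Desipramine change was -0.05 (adjusted p = 0.347) with library totals, where it was not called. Eif2s2 was 416, 289.7, 274, 285 and 305 CPM in FT and 282, 284, 276, 264 and 278 CPM in Bupropion, against 223, 218, 217, 211 and 219 CPM in Control. Both groups lay wholly above Control, and FT replicate 1 lay far above the other 4. The log2 change of Eif2s2 was 0.53 (SE 0.065, adjusted p = 3.16e-08) for FT, 0.37 (SE 0.064, adjusted p = 1.61e-05) for Bupropion, 0.33 (SE 0.064, adjusted p = 3.95e-05) for Desipramine and 0.26 (SE 0.064, adjusted p = 0.00104) for Maltodextrin, and it was -0.05 for Probiotics, which did not pass the test. Against Control and Maltodextrin pooled the Bupropion change was 0.23, and with 10 regions summed the Maltodextrin change was 0.12 (adjusted p = 0.118). The gamma subunit, Eif2s3x, rose after Desipramine (0.30), Bupropion (0.14) and Maltodextrin (0.11) and fell after Probiotics (-0.12). With 10 regions summed, its Bupropion and Probiotics changes did not pass the test, and the Maltodextrin change was -0.08 (adjusted p = 0.0415).

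Of eIF2B, the exchange factor, Eif2b1 and Eif2b2 fell after FT, Desipramine and Maltodextrin. Of the 5 subunits, FT gave 0 higher and 3 lower, Bupropion 1 higher and 1 lower, Desipramine 1 higher and 3 lower, Probiotics 0 higher and 2 lower, and Maltodextrin 0 higher and 3 lower, where 24.3 to 30.9% of all genes were called higher and 25.8 to 35.5% lower. With library totals the counts were 2 higher and 2 lower for FT, 2 higher and 1 lower for Desipramine, 2 higher and 0 lower for Probiotics and 0 higher and 2 lower for Maltodextrin, with Eif2b1 not called after Desipramine. The fall of Eif2b4 after FT was not called without FT replicate 1. Eif2b2, the beta subunit, was 26.9, 38.98, 37.1, 36.4 and 40.9 CPM in FT and 43.7, 40.6, 41.3, 41.2 and 44.00 CPM in Maltodextrin, against 51.9, 50.9, 46.2, 54.5 and 53.5 CPM in Control. Both groups lay below Control, with FT replicate 1 the lowest, and the log2 changes were -0.51 (SE 0.065, adjusted p = 7.7e-08) and -0.29 (SE 0.064, adjusted p = 0.000452). With library totals the FT change was -0.33. Eif2b2 fell after Desipramine too (-0.53, 35.8 ± 1.40 CPM), and stood at 51.6 ± 2.04 CPM in Bupropion, with a log2 change of 0.01 that did not pass the test. Eif2b1, of the regulatory part, fell after FT (-0.28), Bupropion (-0.14), Desipramine (-0.29) and Maltodextrin (-0.20), and Eif2b3, of the catalytic part, rose after Bupropion (0.36). The Eif2b3 change was 0.13 (adjusted p = 0.132) with 10 regions summed. Eif2d, which can deliver tRNA without eIF2, fell after Probiotics (-0.32, SE 0.049, adjusted p = 2.83e-06, 10.1 ± 0.468 against 12.6 ± 0.674 CPM in Maltodextrin) and Bupropion (-0.18, SE 0.047, adjusted p = 0.00168). With 10 regions summed, these changes were -0.18 and -0.11. Eif2a, another tRNA carrier, rose after Desipramine (0.46, SE 0.071, adjusted p = 1.38e-06), at 48.5 ± 2.73 against 35.4 ± 1.43 CPM in Control, and by 0.30 with 10 regions summed.

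Of the 4 eIF2 kinases, all rose after Desipramine, where 30.9% of all genes did, and 3 fell after Probiotics, where 25.8% did. Eif2ak3 fell after Bupropion. Under library totals the kinases were 4 higher and 0 lower after Desipramine and 1 higher and 1 lower after Probiotics, and with 10 regions summed 3 higher and 1 lower after Desipramine and 1 higher and 2 lower after Probiotics. Eif2ak3 encodes PERK, which senses stress of the endoplasmic reticulum, and it was 10.99, 11.6, 10.3, 9.91 and 10.3 CPM in Bupropion, against 16.6, 17.2, 16.1, 18.2 and 15.7 CPM in Control. The groups were far apart, with a log2 change of -0.69 (SE 0.055, adjusted p = 1.95e-11). In FT, Eif2ak3 averaged 16.2 ± 1.08 CPM (log2 change -0.05, not past the test), and it rose by 0.15 after Desipramine. It was 13.4, 15.6, 14.2, 15.6 and 13.4 CPM in Probiotics, against 18.6, 19.02, 18.1, 18.7 and 16.6 CPM in Maltodextrin (-0.31, SE 0.055, adjusted p = 2.73e-05). Eif2ak4, which encodes GCN2, the sensor of uncharged tRNA, averaged 21.5 ± 1.02 CPM in Desipramine, 20.6 ± 0.583 in Maltodextrin, 14.6 ± 0.737 in Bupropion and 16.8 ± 1.13 in Control. It rose after Desipramine (0.33) and Maltodextrin (0.26, SE 0.053, adjusted p = 0.000173) and fell after Bupropion (-0.21, SE 0.053, adjusted p = 0.00128), where the replicates overlapped those of Control. Against Control and Maltodextrin pooled, the Bupropion change was -0.35. Eif2ak1, the heme-regulated kinase, rose after FT (0.20), Bupropion (0.19), Desipramine (0.20) and Maltodextrin (0.15). Eif2ak2, the kinase PKR that binds double-stranded RNA, changed by 0.09 after Desipramine, -0.20 after Probiotics and 0.10 in Maltodextrin.

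Within eIF3, subunits moved in opposite ways. Eif3a, the largest subunit and part of the core, rose after FT, Desipramine and Maltodextrin, whereas Eif3g, a small RNA-binding subunit, fell after FT, Desipramine, Probiotics and Maltodextrin and rose after Bupropion. Eif3a was 388, 243, 269.8, 273 and 226 CPM in FT and 315, 341, 329.7, 329 and 316 CPM in Desipramine, against 205, 203, 209, 209 and 204 CPM in Control. All values of both drugs lay above Control, with FT replicate 1 the highest, and the log2 changes were 0.44 (SE 0.078, adjusted p = 1.5e-05) and 0.65 (SE 0.078, adjusted p = 1.8e-08). With 10 regions summed, the FT change was 0.28. In Maltodextrin Eif3a was 249 ± 4.30 CPM (0.26, SE 0.077, adjusted p = 0.00549, and 0.17 with 10 regions summed). Eif3g was 104, 139, 127, 134 and 145 CPM in FT and 99.3, 93.9, 106, 100.4 and 115 CPM in Desipramine, against 182, 181, 182, 171 and 187 CPM in Control. Neither overlapped Control, and the log2 changes were -0.49 (SE 0.056, adjusted p = 1.31e-08) and -0.81 (SE 0.056, adjusted p = 4.61e-13). With library totals the FT change was -0.30. The Probiotics change of Eif3g (-0.14) was -0.04 (adjusted p = 0.48) with library totals and 0.04 (adjusted p = 0.602) with 10 regions summed. Its Maltodextrin change (-0.17) was -0.08 (adjusted p = 0.141) with library totals. After Bupropion Eif3g rose by 0.24.

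Eif3h, a subunit of the outer part of eIF3, showed the largest fall of any member on the sum of 5 regions, and the widest spread between replicates of the 35 members above 50 CPM. It was 54.1, 51.2, 53.4, 37.97 and 54.7 CPM in Desipramine and 34.6, 92.3, 83.95, 107 and 96.4 CPM in FT, against 104, 108, 119, 116 and 109.9 CPM in Control. All Desipramine values were below Control, while of FT only replicate 1 was far below it and replicate 4 lay within the Control range. The log2 change was -1.23 (SE 0.16, adjusted p = 1.1e-07) for Desipramine and -0.45 (SE 0.16, adjusted p = 0.016) for FT, and without FT replicate 1 the FT change was -0.27 (adjusted p = 0.0136). The median SD between replicates of a group was 0.348 on the log2 scale for Eif3h, against 0.0864 as the median of 3625 genes above 50 CPM, of which 4 had a higher one. The next member was Eif5a with 0.127. In mPOA, Eif3h was 31.3, 50.8, 19.7, 27.7 and 25.6 CPM in Desipramine, against 92.2, 129, 127, 115 and 129 CPM in Control (log2 change -1.94, SE 0.25, adjusted p = 6.13e-08), without overlap. In NACShell it was 89.1, 19.3, 41.3, 25.3 and 28.8 CPM in Desipramine, against 119, 116, 119.9, 114 and 98.4 CPM in Control (-1.86, SE 0.25, adjusted p = 2.73e-07). Replicate 1, the highest there, was the library with 571357 counts.

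**Figure D3:**
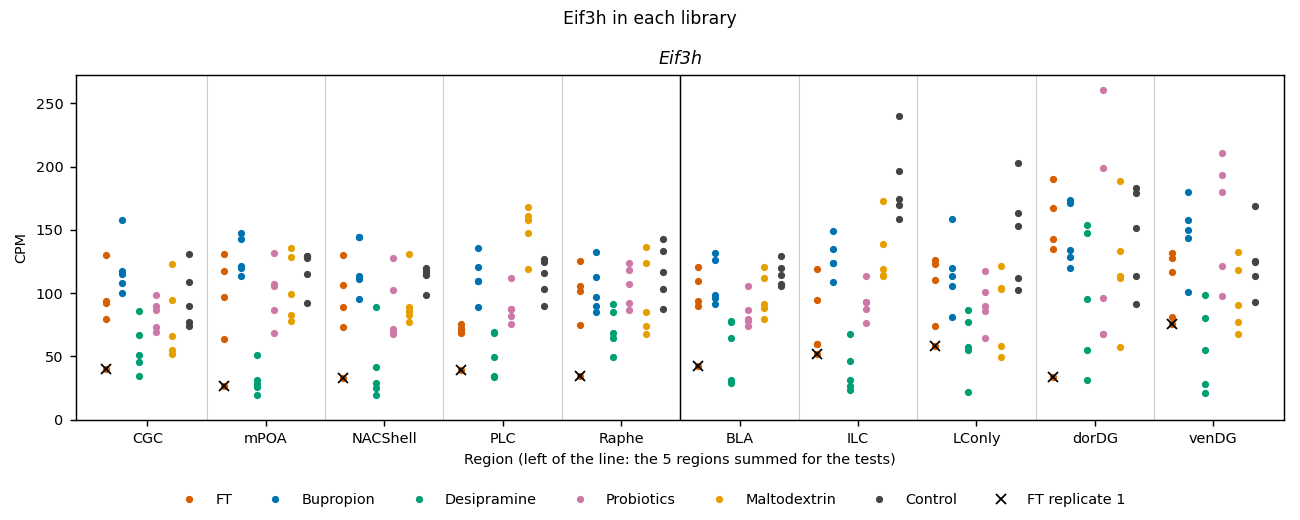
Level of Eif3h in CPM in each library of the 10 regions and 6 treatments, with FT replicate 1 drawn as a cross. The 5 regions of the main comparisons stand left of the line. In mPOA the 5 Desipramine libraries lie between 19.7 and 50.8 CPM and the 5 Control libraries between 92.2 and 129 CPM.

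Other eIF3 subunits changed in some of the comparisons. Eif3k rose after Bupropion (0.51, SE 0.053, adjusted p = 2.83e-09), where it was 111, 114, 120.1, 114 and 105 CPM, against 80.5, 80.3, 75.6, 77.5 and 86.8 CPM in Control. Eif3c, of the core, rose after Bupropion (0.37, SE 0.028, adjusted p = 3.48e-12, 212 ± 1.77 against 166 ± 1.70 CPM), and in Probiotics it was above Maltodextrin (0.15, SE 0.028, adjusted p = 3.76e-05), by 0.25 with 10 regions summed. Eif3e rose after Desipramine (0.40, SE 0.055, adjusted p = 2.19e-07, 117 ± 4.61 against 87.9 ± 1.57 CPM), and by 0.62 with library totals. Eif3i, a ring-shaped subunit bound to Eif3b and Eif3g, fell after FT (-0.44) and Probiotics (-0.33, SE 0.033, adjusted p = 1.93e-09), where it was 109 ± 1.79 against 137 ± 5.10 CPM in Maltodextrin. Eif3m rose in Maltodextrin (0.22, SE 0.037, adjusted p = 1.42e-05, 159 ± 3.43 against 138 ± 2.34 CPM in Control), but was lower, at -0.16 (adjusted p = 0.000849), with 10 regions summed. Eif3j, which loosens eIF3 from the ribosome, was 137, 83.2, 83.02, 91.5 and 80.4 CPM in FT, against 64.1, 60.02, 63.6, 74.4 and 80.8 CPM in Control. Replicate 1 stood highest and replicate 5 lay among the Control values, and the log2 change of 0.45 (SE 0.098, adjusted p = 0.000233) was 0.29 without replicate 1.

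Eif6 and Eif5a fell together with Eif4a1 after FT, Desipramine and Maltodextrin. Eif6 binds the large ribosomal subunit and keeps it from joining the small one early. It was 86.1, 155, 141, 149 and 165 CPM in FT, 102, 94.9, 104, 104 and 115 CPM in Desipramine and 146, 145, 143, 149 and 164 CPM in Maltodextrin, against 206, 204, 206, 208 and 215 CPM in Control. None of the 3 groups overlapped Control, and the log2 changes were -0.59 (SE 0.093, adjusted p = 3e-06), -1.02 (SE 0.093, adjusted p = 1.11e-10) and -0.47 (SE 0.092, adjusted p = 0.000101). The FT change was -0.37 against Control and Maltodextrin pooled. In Bupropion, Eif6 averaged 213 ± 10.1 CPM, a log2 change of 0.03 that did not pass the test. Eif5a, which carries the modified lysine hypusine and helps ribosomes past stretches of proline, was 365, 456, 404, 425 and 512 CPM in FT and 405, 381, 378, 369.8 and 398 CPM in Desipramine, against 738, 700.5, 640.5, 641 and 674 CPM in Control. Both drug groups lay below Control (log2 changes -0.64, SE 0.074, adjusted p = 1.31e-08 and -0.82, SE 0.074, adjusted p = 7.67e-11). Eif5a was 449, 422, 392, 391 and 482 CPM in Probiotics, against 552, 531, 535, 518 and 639.5 CPM in Maltodextrin (-0.41, SE 0.074, adjusted p = 3.18e-05), also without overlap. Maltodextrin lay below Control (-0.26, SE 0.073, adjusted p = 0.00436, and -0.16 with 10 regions summed).

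The other eIF5 genes rose after at least 1 drug. Eif5, which makes eIF2 hydrolyse its GTP once the start codon is found, was 479, 513, 509, 529.6 and 506 CPM in Bupropion, against 359, 360.1, 344, 359.5 and 341 CPM in Control, a log2 change of 0.54 (SE 0.037, adjusted p = 6.49e-13) without overlap. With 10 regions summed the change was 0.29. Eif5b, which joins the ribosomal subunits, rose after FT (0.36), Bupropion (0.31) and Desipramine (0.30). The Bupropion change of Eif5b was 0.16 (adjusted p = 0.105) with 10 regions summed. Eif5a2, a second eIF5A gene, fell after Bupropion (-0.15, SE 0.036, adjusted p = 0.000938), where it was 84.2 ± 1.58 against 93.96 ± 3.69 CPM in Control, and rose in Maltodextrin (0.24, SE 0.036, adjusted p = 2.54e-06) to 111 ± 2.64 CPM. It also rose after Desipramine (0.28) and FT (0.10) and fell after Probiotics (-0.25). With library totals the Bupropion change was -0.11 (adjusted p = 0.064), and against Control and Maltodextrin pooled -0.28. Of the 5 eIF1 genes, 4 rose after FT and after Desipramine, where 28.3% and 30.9% of all genes did. After Probiotics 4 fell, where 25.8% of all genes did. Scaled by library totals, the eIF1 genes were 4 higher and 0 lower after FT, 4 higher and 1 lower after Desipramine and 0 higher and 2 lower after Probiotics, and with 10 regions summed 3 higher and 1 lower after FT, 3 higher and 1 lower after Desipramine and 1 higher and 3 lower after Probiotics. Eif1b was 325, 263, 248, 247 and 258 CPM in FT, against 206, 206, 190.4, 193 and 199 CPM in Control (log2 change 0.44, SE 0.049, adjusted p = 6.53e-09), without overlap and with replicate 1 the highest. Eif1ax rose in Maltodextrin (0.25, SE 0.043, adjusted p = 2.03e-05), at 99.5 ± 2.34 against 83.7 ± 1.86 CPM in Control. Eif1ad fell where the other 4 eIF1 genes rose, after FT (-0.28) and Desipramine (-0.33), and it rose after Bupropion (0.18), as did Eif1 (0.26) and Eif1b (0.24). The FT fall was not called with library totals, and the Bupropion call turned to a fall with 10 regions summed.

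FT replicate 1 stood apart in the members as in other genes. On the mean of 5 regions it lay outside the other 4 FT replicates by Dixon's test in 15 of 51 members and in 2212 of 9643 genes above 5 CPM (22.94%), where no other treatment replicate of the 30 exceeded 3.868% of genes. In each of the 10 regions it was the lowest FT library for Eif3g, Eif3h and Eif6, and the highest for 12 members, among them Eif2s2, Eif3a, Eif3j, Eif1b and Eif5b. Without it, 36 members were called for FT, 20 higher and 16 lower, all in the direction they had with it, where 28.7% and 31.4% of all genes were called higher and lower. Eif2b4, Eif3d and Eif5a2 were no longer called. The log2 change was 0.14 for Eif3e, 0.29 for Eif3j, 0.18 for Eif5b and -0.27 for Eif3h without it, against 0.24, 0.45, 0.36 and -0.45 with it. The changes of Eif4a1 and Eif4ebp2 without it were -0.85 and 0.75. Its total counts, between 3511756 and 4807308 over the 10 regions, all lay below those of every other FT library.

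Cell type markers moved with treatment too, beside the changes of Eif4a1, Eif6 and the rest. The 7 oligodendrocyte markers summed to 26900 CPM in FT, 42810 in Bupropion, 23410 in Desipramine, 37330 in Probiotics, 40490 in Maltodextrin and 49410 in Control, on the mean of 5 regions, and to 20010 CPM in FT replicate 1. The 5 neuron markers summed to 5431 CPM in FT, 6112 in Bupropion, 6462 in Desipramine, 6420 in Probiotics, 6981 in Maltodextrin and 6914 in Control. The 6 microglia markers summed to 432 CPM in FT, 590.0 in Bupropion, 364 in Desipramine, 433 in Probiotics, 452 in Maltodextrin and 533 in Control, and the 6 astrocyte markers to 2176 CPM in FT, 2186 in Bupropion, 2198 in Desipramine, 2053 in Probiotics, 2248 in Maltodextrin and 2177 in Control. Oligodendrocyte markers were thus lowest in FT and Desipramine, the treatments in which Eif4a1 and Eif6 were lowest. That order was not particular to them. Vessel markers were lowest in FT and Desipramine as well, and microglia markers in Desipramine, with FT and Probiotics next and close together. Neuron markers were lowest in FT, and astrocyte markers in Probiotics. The 6 choroid plexus markers summed to between 30.7 CPM in FT and 75.1 CPM in Probiotics, the 5 vessel markers to between 166 and 229.6 CPM, and the 5 markers of blood-derived immune cells to between 17.3 and 37.1 CPM. The part of these shifts in the members' changes was not tested.

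Each of the 5 regions was also fitted alone, giving 255 pairs of member and region in each comparison. For FT, 90 pairs were called higher and 81 lower, with 24.1% and 24.4% of all pairs of gene and region called. For Bupropion, 108 were higher and 49 lower (22.9% and 22.9%). For Desipramine, 104 were higher and 74 lower (27.2% and 29.5%). For Probiotics, 30 were higher and 84 lower than in Maltodextrin (19.5% and 19.4%). For Maltodextrin, 66 were higher and 54 lower (19.8% and 22.8%). By region, after Bupropion PLC had 32 higher and 6 lower of the 51 members (23.3% and 23.9% of all genes) and NACShell 10 higher and 19 lower (24.6% and 23.1% of all genes). In Maltodextrin, PLC had 24 higher and 5 lower (22.1% and 26.8% of all genes) and NACShell 5 higher and 22 lower (20.7% and 25.8% of all genes). After Probiotics, PLC had 5 higher and 26 lower (26.2% and 20.9% of all genes) and CGC 10 higher and 13 lower (15.7% and 16.4% of all genes). Whether these counts differ between regions was not tested.

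After FT, the largest falls in a single region were all in Raphe, the region of the serotonin neurons. Eif4a1 in Raphe was 216, 276, 245, 235 and 276 CPM in FT, against 695, 682, 645, 586 and 659 CPM in Control, a log2 change of -1.42 (SE 0.077, adjusted p = 1.12e-16). Eif5a in Raphe averaged 291 ± 55.3 CPM in FT and 616 ± 51.1 CPM in Control (-1.11, SE 0.11, adjusted p = 1.01e-10), and Eif6 127 ± 30.4 CPM in FT and 262 ± 14.1 CPM in Control (-1.07, SE 0.11, adjusted p = 4.36e-10). The oligodendrocyte markers in Raphe summed to 68820 CPM in FT and 151900 CPM in Control, and the part of that gap in these falls was not tested. The largest rises after FT were those of Eif4ebp2 in NACShell (1.14, SE 0.11, adjusted p = 1.49e-10), Raphe (1.01) and mPOA (0.86). The FT group of NACShell is the one that held 214 CPM of the mPOA markers, and Eif4ebp2 averaged 17.6 CPM over all mPOA libraries, above every other region of the 5. In the NACShell groups of the other 5 treatments, Bupropion, Desipramine and Control among them, these markers lay between 7.46 and 20.0 CPM. The part of the mPOA markers in the FT change was not tested. Eif4ebp2 in NACShell was 19.5, 18.7, 14.3, 16.6 and 14.4 CPM in FT, 17.8, 19.8, 17.5, 18.7 and 18.00 CPM in Bupropion and 19.97, 18.6, 19.1, 16.9 and 17.9 CPM in Desipramine, against 6.26, 8.11, 7.20, 8.13 and 8.29 CPM in Control. All 3 drug groups were above Control, with log2 changes of 1.27 (SE 0.11, adjusted p = 3.77e-12) for Bupropion and 1.26 (SE 0.11, adjusted p = 5.47e-11) for Desipramine. The 3 drugs are compared with the same 5 Control libraries here.

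Eif2ak3 in CGC was 6.84, 7.59, 7.99, 6.41 and 7.74 CPM in Bupropion, against 16.8, 14.9, 15.6, 18.3 and 16.2 CPM in Control. Its log2 change there was -1.18 (SE 0.089, adjusted p = 7.79e-13). In PLC the change of Eif2ak3 was -1.06 (SE 0.10, adjusted p = 6.25e-10), with 8.36 ± 1.29 CPM in Bupropion and 17.6 ± 1.06 CPM in Control. Eif4a2 in CGC averaged 416 ± 33.7 CPM in Bupropion and 838 ± 21.3 CPM in Control (-1.02, SE 0.061, adjusted p = 2.27e-15). Eif4ebp1 in CGC rose to 17.1, 16.4, 21.1, 15.5 and 18.9 CPM in Bupropion, against 8.46, 11.1, 9.26, 7.18 and 8.05 CPM in Control (1.001, SE 0.15, adjusted p = 1.02e-06). Eif4enif1 in NACShell rose after Bupropion (0.76, SE 0.10, adjusted p = 1.62e-07) and Desipramine (0.84, SE 0.11, adjusted p = 1e-07), with 20.9 ± 1.83 and 23.2 ± 4.29 CPM against 12.3 ± 1.91 CPM in Control. After Desipramine, Eif3a in mPOA rose to 335, 366, 355, 331 and 321 CPM, against 161, 179.9, 182, 169.6 and 165 CPM in Control (0.99, SE 0.087, adjusted p = 1.8e-11), and Eif6 there fell to 90.5 ± 9.28 CPM, against 205 ± 6.35 CPM in Control (-1.18, SE 0.11, adjusted p = 1.27e-10).

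Of the 5 regions, PLC had the most members called between Probiotics and Maltodextrin. Calls over all genes were frequent there too, at 26.2% higher and 20.9% lower, against 19.5% and 19.4% over the 5 regions together. Eif4ebp2 in PLC was 13.3, 14.7, 13.8, 9.40 and 12.8 CPM in Probiotics and 5.28, 3.90, 5.70, 6.18 and 4.65 CPM in Maltodextrin, and 12.1, 9.87, 10.5, 10.3 and 9.18 CPM in Control. Every Probiotics value was above every Maltodextrin value (1.36, SE 0.12, adjusted p = 7.44e-11), and Maltodextrin was below Control (-1.06, SE 0.12, adjusted p = 1.1e-08). Eif4ebp2 was also higher in Probiotics than in Maltodextrin in NACShell (1.13, SE 0.11, adjusted p = 3.88e-10) and mPOA (0.95, SE 0.097, adjusted p = 2.78e-09). Eif5a in PLC averaged 506 ± 58.1 CPM in Probiotics and 956 ± 132 CPM in Maltodextrin (-0.90, SE 0.10, adjusted p = 1.15e-08), and Eif4a1 in PLC 427 ± 13.8 and 769.9 ± 53.2 CPM (-0.83, SE 0.060, adjusted p = 4.74e-13). Eif4ebp3 in CGC was lower in Probiotics (-0.80, SE 0.18, adjusted p = 0.00104), at 3.04 ± 0.549 against 5.37 ± 1.04 CPM. Between Maltodextrin and Control, the largest rises were those of Eif2ak4 in NACShell (0.58, SE 0.11, adjusted p = 3.69e-05), Eif4ebp3 in NACShell (0.55, SE 0.17, adjusted p = 0.00813) and Eif2s2 in PLC (0.55, SE 0.072, adjusted p = 1.1e-07). Beside Eif4ebp2 in PLC, the largest falls were those of Eif6 (-0.82, SE 0.11, adjusted p = 1.63e-07) and Eif5a (-0.81, SE 0.082, adjusted p = 2.09e-09) in CGC, where Eif6 averaged 120.3 ± 11.3 CPM in Maltodextrin and 212 ± 7.02 CPM in Control.

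Whether an effect differed between the 5 regions was tested directly, as a treatment by region term in edgeR with the treatment replicate in the model. It did for 40 of 51 members after FT, 45 after Bupropion, 39 after Desipramine, 37 after Probiotics and 44 in Maltodextrin, where 66.8%, 70.5%, 62.6%, 54.2% and 62.5% of all genes tested did. After FT the smallest p-values were those of Eif4a1 (adjusted p = 7.78e-15), Eif6 (adjusted p = 6.17e-13) and Eif4a2 (adjusted p = 6.42e-12). The FT change of Eif4a1 was -1.02 in CGC, -0.80 in mPOA, -0.59 in NACShell, -0.70 in PLC and -1.42 in Raphe, so it was negative throughout and differed in size. The NACShell values of FT are those of the group with mPOA markers. That of Eif6 was -0.55 in CGC, -0.43 in mPOA, -0.16 in NACShell, -0.55 in PLC and -1.07 in Raphe, and that of Eif4a2 -0.07 in CGC, -0.46 in mPOA, -0.73 in NACShell, -0.18 in PLC and -0.47 in Raphe. After Bupropion they were Eif3m, with -0.10 in CGC, 0.44 in mPOA, -0.40 in NACShell, 0.35 in PLC and 0.20 in Raphe, Eif3e, with -0.07 in CGC, 0.36 in mPOA, -0.48 in NACShell, 0.29 in PLC and 0.08 in Raphe, and Eif4a2, with -1.02 in CGC, -0.23 in mPOA, -0.997 in NACShell, -0.33 in PLC and -0.58 in Raphe. Eif3m and Eif3e thus had changes of both signs after Bupropion. After Desipramine they were Eif5a2, with 0.79 in CGC, 0.51 in mPOA, -0.17 in NACShell, 0.35 in PLC and 0.17 in Raphe, Eif3m, with -0.01 in CGC, 0.23 in mPOA, -0.23 in NACShell, 0.24 in PLC and 0.50 in Raphe, and Eif4a1, with -0.97 in CGC, -0.94 in mPOA, -0.50 in NACShell, -0.54 in PLC and -0.54 in Raphe.

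For Probiotics against Maltodextrin the smallest p-values were those of Eif4a1 (adjusted p = 1.6e-14), Eif5a (adjusted p = 1.12e-11) and Eif3g (adjusted p = 5.45e-10). The change of Eif4a1 was 0.08 in CGC, -0.46 in mPOA, -0.21 in NACShell, -0.83 in PLC and -0.30 in Raphe. That of Eif5a was 0.09 in CGC, -0.50 in mPOA, 0.07 in NACShell, -0.90 in PLC and -0.30 in Raphe, and that of Eif3g 0.13 in CGC, -0.20 in mPOA, 0.04 in NACShell, -0.41 in PLC and -0.10 in Raphe. For Maltodextrin against Control they were Eif4a1 (adjusted p = 7.53e-17), Eif5a2 (adjusted p = 1.57e-15) and Eif4a2 (adjusted p = 5.43e-14). The change of Eif4a1 was -0.79 in CGC, -0.26 in mPOA, -0.25 in NACShell, 0.28 in PLC and -0.36 in Raphe, positive in PLC and negative elsewhere. That of Eif5a2 was 0.48 in CGC, 0.31 in mPOA, -0.29 in NACShell, 0.40 in PLC and 0.25 in Raphe, and that of Eif4a2 0.19 in CGC, 0.14 in mPOA, -0.42 in NACShell, 0.30 in PLC and 0.18 in Raphe. A change on the sum of 5 regions therefore averages over effects of different size, and for Eif4a1 in Maltodextrin over effects of different sign.

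Each of the 5 regions was compared with the mean of the other 4 over all 6 treatments (30 libraries per region), with treatment replicate in the model. In PLC, 39 members were called higher and 7 lower, where 43% and 40.3% of all genes were. In Raphe, 24 were higher and 18 lower (42.4% and 43.7%). In NACShell, 17 were higher and 26 lower (36.8% and 40.4%). In CGC, 15 were higher and 25 lower (38.3% and 42.3%). In mPOA, 7 were higher and 34 lower (42% and 40.7%). The median log2 difference over the members was 0.15 in PLC and -0.12 in mPOA, against 0.00 and 0.01 over all genes. By family, over all 6 treatments, 9 of 14 eIF2, 10 of 13 eIF3 and 11 of 14 eIF4 genes were higher in PLC (43% of all genes). In mPOA 11, 8 and 7 were lower (40.7% of all genes), and the eIF4 count lies near that share. No difference between families was tested. In the Control libraries alone (5 per region), PLC had 21 members higher and 11 lower (34.8% and 32.3% of all genes), NACShell 25 higher and 7 lower (34.1% and 33.9%), and mPOA 3 higher and 34 lower (34% and 36.1%). The 5 neuron markers summed to 8327 ± 949 CPM in CGC, 2990 ± 337 CPM in mPOA, 4752 ± 536 CPM in NACShell, 7991 ± 992 CPM in PLC and 7873 ± 1062 CPM in Raphe (SD over 30 libraries). They were lowest in mPOA and highest in CGC, and their part in the member counts was not tested.

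**Figure D4:**
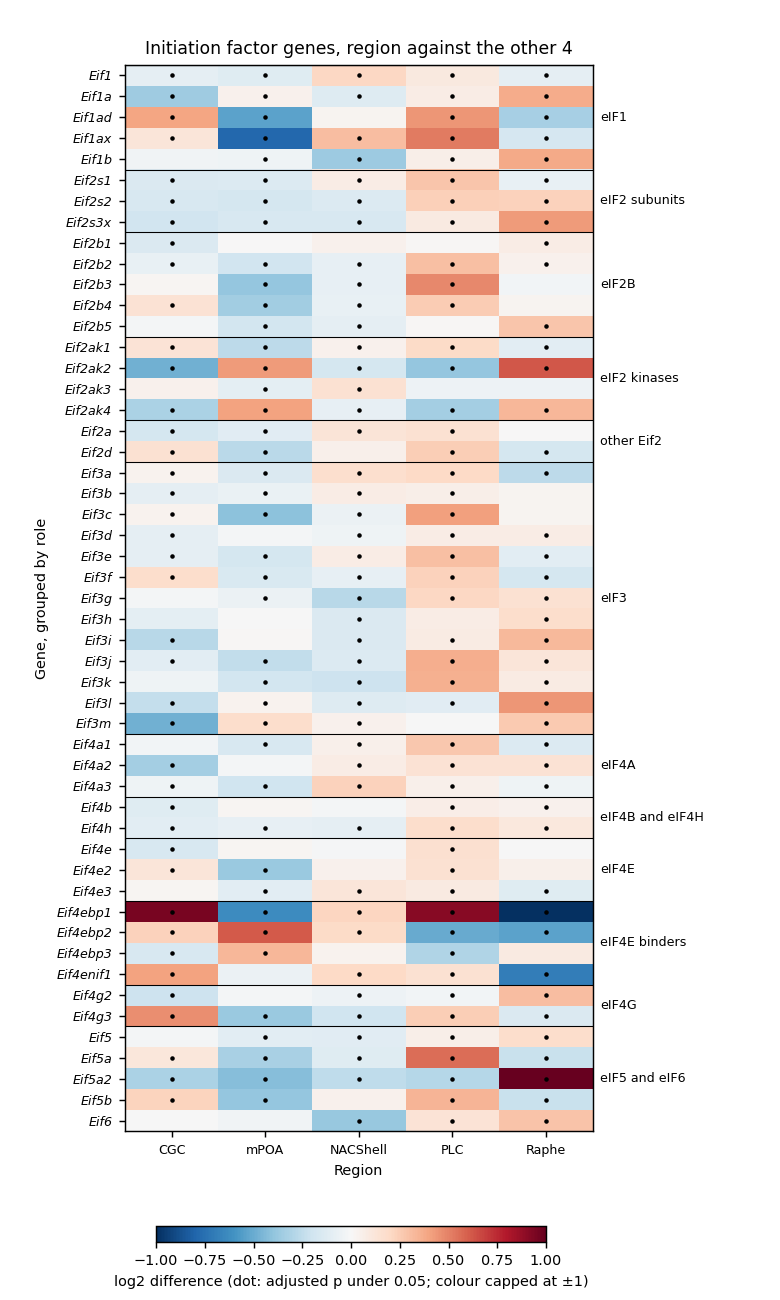
Log2 difference of each member (down the page) between 1 region and the mean of the other 4 (across), in colour, over all 6 treatments. PLC is mostly higher (39 of 51, against 43% of all genes) and mPOA mostly lower (34 of 51, against 40.7% of all genes). In Control libraries alone PLC had 21 members higher and 11 lower (34.8% and 32.3% of all genes). The difference of Eif5a2 in Raphe is 1.29.

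The largest regional difference upward was that of Eif5a2 in Raphe. Eif5a2 averaged 187 ± 20.1 CPM over the 30 Raphe libraries, from 155 to 219, and 78.05 CPM over the other 4 regions, a log2 difference of 1.29 (SE 0.014, adjusted p = 2.36e-105). No library of CGC, mPOA, NACShell or PLC exceeded 117 CPM. Within Raphe it was 208, 192, 193, 170.0 and 169 CPM in FT, 214, 218, 219, 211 and 211 CPM in Maltodextrin and 185, 177, 190.0, 175 and 165 CPM in Control. Among the other 5 regions, Eif5a2 averaged 153 ± 45.9 CPM in LConly, 104 ± 14.2 in venDG, 78.1 ± 26.3 in ILC, 86.5 ± 10.6 in dorDG and 84.7 ± 6.32 in BLA. In FT, where the markers of ILC and LConly were exchanged, Eif5a2 was 67.9 CPM in LConly and 129.9 CPM in ILC. Raphe was also high in Eif2ak2 (0.62, SE 0.022, adjusted p = 7.36e-51), Eif3l (0.44), Eif2s3x (0.43, SE 0.014, adjusted p = 4.62e-54) and Eif1b (0.38). It was low in Eif4ebp1 (-1.44, SE 0.073, adjusted p = 2.33e-37), Eif4enif1 (-0.69), Eif4ebp2 (-0.54), Eif1ad (-0.33) and Eif3a (-0.27). In Control alone, the differences of Eif1b and Eif1ad were 0.19 and -0.17. The 7 oligodendrocyte markers summed to between 65910 and 151900 CPM in the 6 Raphe groups, and to at most 55430 CPM in the groups of the other 4 regions. Their part in these differences was not tested.

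Eif4ebp1 had the largest ratio of highest to lowest regional mean of any member over the 5 regions. It averaged 8.27 ± 4.87 CPM in CGC, 7.42 ± 2.25 CPM in PLC, 4.996 ± 2.02 CPM in NACShell, 3.13 ± 1.04 CPM in mPOA and 2.01 ± 0.621 CPM in Raphe (SD over 30 libraries). It was higher in CGC (0.95, SE 0.061, adjusted p = 9.93e-29) and PLC (0.91, SE 0.054, adjusted p = 6.81e-32) and lower in mPOA (-0.63, SE 0.070, adjusted p = 1.51e-14) and Raphe than in the other 4 regions. CGC and PLC overlapped, and in NACShell the mean of 4.996 CPM was below the 5.21 CPM of the other 4 while the fitted difference was positive (0.22, SE 0.066, adjusted p = 0.002), where the fit is on the log scale and averages over treatments. In Control alone that difference was 0.34. Eif4ebp2 had another order, with 17.6 ± 5.64 CPM in mPOA, 14.4 ± 4.99 CPM in NACShell, 14.1 ± 3.25 CPM in CGC, 9.64 ± 3.38 CPM in PLC and 9.24 ± 2.96 CPM in Raphe. It was higher in mPOA (0.61, SE 0.032, adjusted p = 5.81e-36), NACShell (0.19) and CGC (0.23) and lower in PLC (-0.50) and Raphe. In Control alone the PLC difference was 0.12 (adjusted p = 0.155). The Control libraries of NACShell held 6.26 to 8.29 CPM, below the Control mean over 5 regions, at 9.55 to 10.4 CPM. Over all treatments, the means of mPOA and NACShell, of NACShell and CGC, and of PLC and Raphe lay within 1 SD of each other. Those of CGC and PLC did not. Eif4enif1 was higher in CGC (0.40, SE 0.033, adjusted p = 1.33e-21) and NACShell (0.20), where in Control alone it stood at -0.16 (adjusted p = 0.127).

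**Figure D5:**
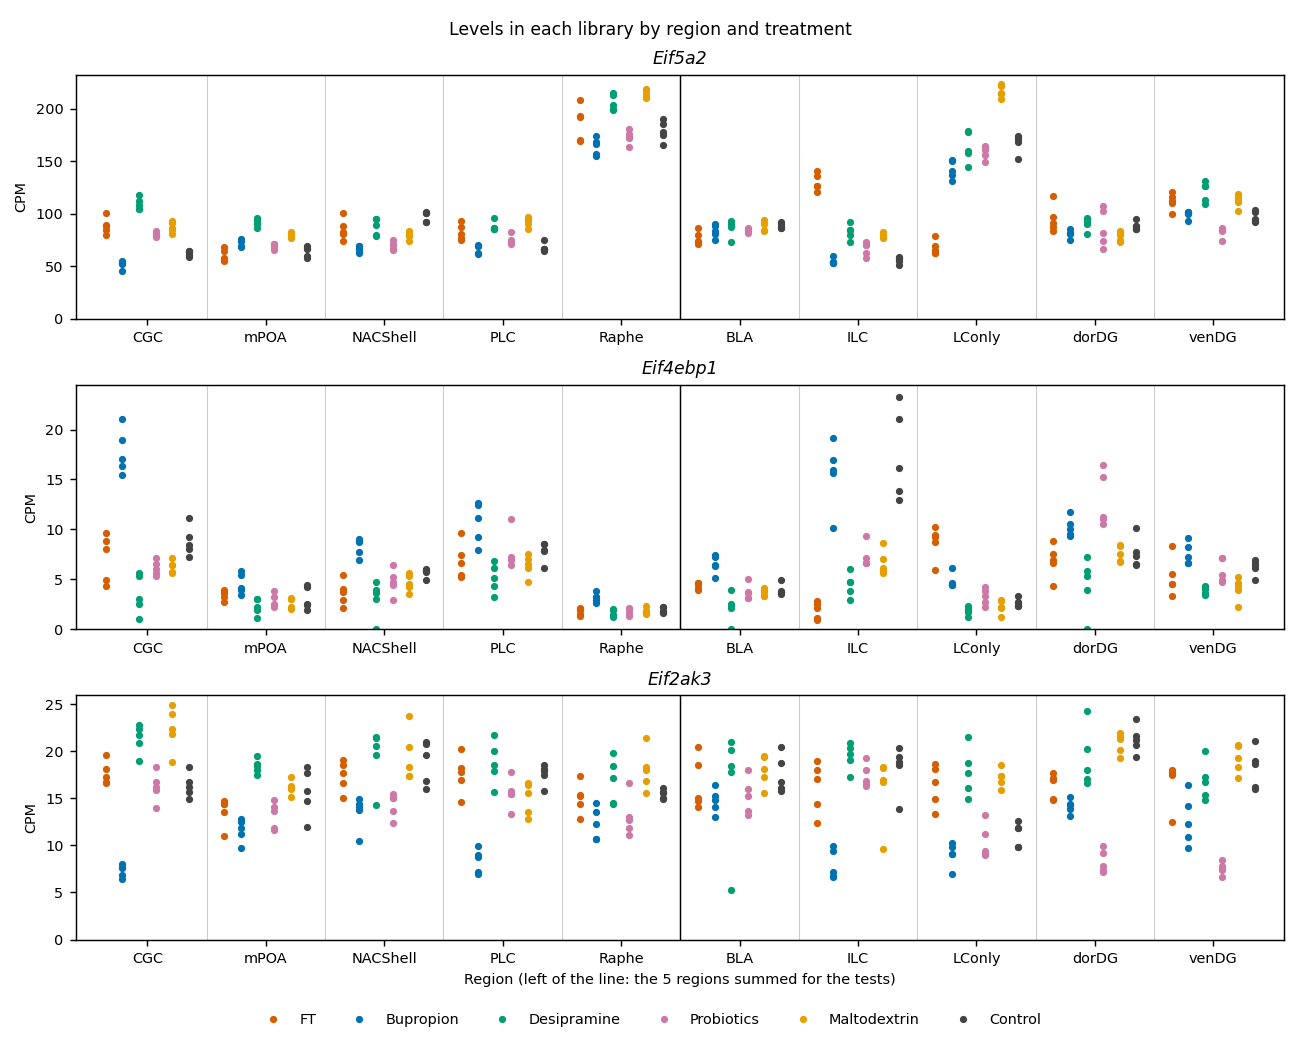
Level in CPM of Eif5a2, Eif4ebp1 and Eif2ak3 in each library of the 10 regions, coloured by treatment. Eif5a2 in Raphe (155 to 219 CPM) lies above all libraries of CGC, mPOA, NACShell and PLC, and Eif2ak3 is low in Bupropion in CGC (7.31 ± 0.663 CPM).

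Each of the eIF2 subunits had its highest mean in PLC or Raphe. Eif2s1 averaged 109 ± 18.9 CPM in PLC, 98.1 ± 15.2 CPM in NACShell, 89.6 ± 17.4 CPM in Raphe, 87.02 ± 14.3 CPM in CGC and 86.3 ± 12.97 CPM in mPOA, with PLC higher than the rest (0.28, SE 0.017, adjusted p = 1.24e-30) and the lowest 3 within 1 SD of each other. Eif2s2 averaged 300.4 ± 50.04 CPM in PLC, 297 ± 49.5 CPM in Raphe, 244 ± 29.8 CPM in NACShell, 243 ± 40.2 CPM in CGC and 239 ± 48.99 CPM in mPOA. PLC (0.24) and Raphe (0.23) were higher and the other 3 lower. Eif2s3x averaged 168 ± 18.4 CPM in Raphe, 139 ± 17.5 CPM in PLC, 122 ± 14.97 CPM in NACShell, 122 ± 15.4 CPM in mPOA and 120.3 ± 12.6 CPM in CGC. Of the kinases, Eif2ak1 averaged 68.2 ± 6.18 CPM in PLC, 67.2 ± 6.97 CPM in CGC, 63.6 ± 6.35 CPM in NACShell, 57.6 ± 5.28 CPM in Raphe and 53.05 ± 6.11 CPM in mPOA, and Eif2ak2 30.1 ± 2.53 CPM in Raphe, 27.2 ± 3.06 CPM in mPOA, 19.9 ± 2.88 CPM in NACShell, 17.2 ± 2.03 CPM in PLC and 16.6 ± 1.72 CPM in CGC. Eif2ak2 was thus higher in Raphe and mPOA (0.43, SE 0.023, adjusted p = 1.19e-34) and lower in CGC (-0.48, SE 0.026, adjusted p = 1.43e-34), PLC (-0.39) and NACShell (-0.18). Eif2ak4 had the same split, with 22.6 ± 3.83 CPM in mPOA, 21.5 ± 3.03 CPM in Raphe, 17.5 ± 3.41 CPM in NACShell, 15.4 ± 3.46 CPM in CGC and 14.8 ± 2.52 CPM in PLC, higher in mPOA (0.41, SE 0.026, adjusted p = 9.59e-30) and Raphe (0.33) and lower in PLC (-0.34, SE 0.026, adjusted p = 2.39e-23) and CGC (-0.32). Eif2ak3 ranged from 17.1 ± 3.15 CPM in NACShell to 14.8 ± 2.65 CPM in mPOA, and CGC, PLC and Raphe did not pass the test.

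Eif4e averaged 207 ± 27.9 CPM in PLC, 192 ± 23.8 CPM in mPOA, 190.0 ± 17.8 CPM in NACShell, 189 ± 26.2 CPM in Raphe and 176 ± 15.04 CPM in CGC, and only PLC (0.16, SE 0.016, adjusted p = 1.12e-16) and CGC (-0.16, SE 0.016, adjusted p = 9.7e-16) of the 5 passed the test. Eif4a1 averaged 577 ± 179.9 CPM in PLC, 498 ± 164 CPM in CGC, 498 ± 80.3 CPM in NACShell, 458 ± 127 CPM in Raphe and 447 ± 111 CPM in mPOA, with PLC higher (0.27, SE 0.014, adjusted p = 1.56e-35). Eif4a2 averaged 993 ± 227 CPM in Raphe, 982 ± 179 CPM in PLC, 968 ± 251 CPM in NACShell, 897 ± 159.7 CPM in mPOA and 782 ± 199 CPM in CGC, with CGC lower (-0.34, SE 0.017, adjusted p = 1.43e-38). These SDs include the differences between treatments. PLC was further high in Eif5a (0.56, SE 0.024, adjusted p = 1.58e-43; 709 CPM against 476 in the other 4), Eif1ax (0.52), Eif2b3 (0.48) and Eif1ad (0.44), and low in Eif4ebp3 (-0.30) and Eif5a2 (-0.28). In Control alone the differences of Eif5a and Eif5a2 were 0.32 and -0.43. CGC was high in Eif4g3 (0.47, SE 0.013, adjusted p = 2.35e-61; 216 against 156 CPM) and Eif1ad (0.39), and low in Eif3m (-0.48, SE 0.014, adjusted p = 4.28e-59), Eif1a (-0.36) and Eif5a2 (-0.32, and -0.59 in Control alone). mPOA was high in Eif4ebp3 (0.33) and Eif3m (0.18), which in Control alone were 0.19 (adjusted p = 0.157) and 0.03 (adjusted p = 0.457). It was low in Eif1ax (-0.79, SE 0.021, adjusted p = 1.8e-64; 55.5 against 97.5 CPM), Eif1ad (-0.54), Eif5a2 (-0.43) and Eif3c (-0.41). NACShell was high in Eif1ax (0.31), Eif4a3 (0.23) and Eif1 (0.21), and in Control alone these were 0.67, 0.35 and 0.48. It was low in Eif6 (-0.38, SE 0.023, adjusted p = 1.77e-31), Eif1b (-0.36, and -0.18 in Control alone), Eif3g (-0.28), Eif5a2 (-0.25) and Eif3k (-0.20). In Control alone Eif5a2 was 0.23 (adjusted p = 1.33e-06) and Eif3k 0.17 (adjusted p = 0.00114), both with the opposite sign.

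Genes on either side of initiation were counted in the same fits, in which 24.3 to 30.9% of all genes were called higher and 25.8 to 35.5% lower. Of 12 elongation and termination genes, those called were 6 higher and 5 lower after FT, 6 higher and 1 lower after Bupropion, 5 higher and 4 lower after Desipramine, 2 higher and 5 lower after Probiotics and 4 higher and 4 lower in Maltodextrin. Eef1a1, an elongation factor that brings tRNA to the ribosome, fell after FT (-0.63), Desipramine (-0.42) and Probiotics (-0.43), and Eef2, which moves the ribosome along, fell after Desipramine (-0.90), Maltodextrin (-0.39) and FT (-0.29). Of 14 genes of the integrated stress response, which follows phosphorylation of eIF2, those called were 6 higher and 6 lower after FT, 3 higher and 3 lower after Bupropion, 5 higher and 8 lower after Desipramine, 6 higher and 4 lower after Probiotics and 1 higher and 7 lower in Maltodextrin. Atf4, its main transcription factor, changed by 0.21 after FT, -0.25 after Bupropion, 0.36 after Desipramine and -0.21 after Probiotics. Ppp1r15b, a partner of the phosphatase that reverses the phosphorylation, rose after FT (0.45), Desipramine (0.78) and Maltodextrin (0.34) and fell after Probiotics (-0.36). Ppp1r15a, the other such partner, fell after FT (-0.26), Desipramine (-0.52) and Maltodextrin (-0.39) and rose after Probiotics (0.16). Of 18 genes of poly(A) binding and of the mTOR side, those called were 9 higher and 4 lower after FT, 9 higher and 4 lower after Bupropion, 12 higher and 5 lower after Desipramine, 7 higher and 7 lower after Probiotics and 9 higher and 3 lower in Maltodextrin. Pabpc1, which binds the poly(A) tail and eIF4G, rose in all 5 (FT 0.53, Bupropion 0.36, Desipramine 0.56, Probiotics 0.19, Maltodextrin 0.20). Mknk1, a kinase of Eif4e, fell after FT (-0.53), Bupropion (-0.76), Desipramine (-0.62) and Probiotics (-0.23).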

How the data were processed

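Whole-number read counts per gene symbol were deposited by the authors, 1 column per library, for 300 libraries of stranded total RNA, and all 300 columns were matched to samples by name (0 unmatched). STAR, HTSeq, FastQC and the build rn6 are named in the submitters' processing notes. HTSeq's strand setting and the versions of these tools are unstated in the sources used here. The gene family and the lists were taken up with earlier results of these data known.

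Counts of CGC, mPOA, NACShell, PLC and Raphe were summed within each treatment replicate, and the 6 treatments were fitted together with edgeR 4.0.16 in R 4.3.3 (filterByExpr, TMM, quasi-likelihood F test, Benjamini-Hochberg adjustment over all genes, threshold 0.05). TMM factors of single libraries entered the sum as gene-wise offsets. Single regions were fitted alone. Region contrasts and treatment by region terms had the treatment replicate as a block. Summing and blocking take a replicate number to mark the same animals over regions, which the sources used here do not state. Over regions of a treatment, libraries with the same number had a median correlation of deviations of 0.0649, against -0.00709 for different numbers. CPM are counts per 1000000 of library totals scaled by TMM factors over the 300 libraries. Mean CPM over 5 regions weighs regions equally, while the fitted change of the sum weighs them by counts, so they can differ. Genes were named by rule: the 6 largest called changes per direction on the sum, 5 per region contrast, 3 per direction in single regions and the 3 smallest p of the treatment by region term, above 1 CPM; levels by region of eIF2 subunits, kinases and cap-binding genes whether called or not. Other genes named beside them were chosen after their values were seen. DESeq2 1.42.0, other scalings, no filter, all 10 regions, other baselines, a replicate block and leaving out each replicate were alternatives. Fits were tested on simulated data. Tables and figures used Python 3.11.15, pandas 2.3.3 and matplotlib 3.10.9. The limma version present in R was 3.58.1. The depth of a library, 198260 counts at the least, limits the precision of its values.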

Additional observations from a re-analysis of the deposited data

Results flagged for a closer look

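On the mean of 5 regions, 1 replicate lay far from the other 4 of its treatment in 34 of 306 pairs of member and treatment (11.1%), by Dixon's test, where chance gives about 1 in 20. Over all genes above 5 CPM the share was 8.74%, and 5.7% without FT. Of those pairs of member and treatment, 15 were FT replicate 1. FT replicate 1 lay above the other 4 FT replicates in Eif1b (325 CPM, others 247 to 263), Eif2a (53.5 CPM, others 33.4 to 37.2), Eif2s1 (94.1 CPM, others 77.9 to 80.1), Eif2s2 (416 CPM, others 274 to 305), Eif2s3x (140.4 CPM, others 119.7 to 126), Eif3a (388 CPM, others 226 to 273), Eif3e (133 CPM, others 94.5 to 98.7), Eif3j (137 CPM, others 80.4 to 91.5), Eif3m (158 CPM, others 128 to 136), Eif4b (198 CPM, others 163 to 169), Eif4e (189.5 CPM, others 156 to 165), Eif4e3 (27.1 CPM, others 19.2 to 21.04) and Eif5b (114 CPM, others 65.7 to 73.7). Bupropion replicate 3 lay above the other 4 Bupropion replicates in Eif2b2 (55.2 CPM, others 50.1 to 51.1). Bupropion replicate 4 lay above the other 4 Bupropion replicates in Eif4e (199 CPM, others 195 to 196). Desipramine replicate 5 lay above the other 4 Desipramine replicates in Eif2b1 (25.7 CPM, others 22.5 to 23.2). Probiotics replicate 1 lay above the other 4 Probiotics replicates in Eif3f (156 CPM, others 144 to 146). Maltodextrin replicate 5 lay above the other 4 Maltodextrin replicates in Eif4a1 (596 CPM, others 530.2 to 539), Eif5a (639.5 CPM, others 518 to 552) and Eif6 (164 CPM, others 143 to 149). Control replicate 5 lay above the other 4 Control replicates in Eif1ad (70.3 CPM, others 67.6 to 68.04). Control replicate 1 lay above the other 4 Control replicates in Eif3e (90.6 CPM, others 86.7 to 87.7) and Eif4b (170.2 CPM, others 163 to 164). FT replicate 5 lay below the other 4 FT replicates in Eif2ak4 (15.97 CPM, others 19.3 to 19.8). FT replicate 1 lay below the other 4 FT replicates in Eif4enif1 (15.4 CPM, others 16.9 to 17.2) and Eif4h (217 CPM, others 246 to 258). Bupropion replicate 5 lay below the other 4 Bupropion replicates in Eif1b (225 CPM, others 236 to 237) and Eif2b3 (39.4 CPM, others 42.1 to 43.03). Desipramine replicate 4 lay below the other 4 Desipramine replicates in Eif3h (37.97 CPM, others 51.2 to 54.7). Probiotics replicate 5 lay below the other 4 Probiotics replicates in Eif3d (91.5 CPM, others 100.3 to 103). Maltodextrin replicate 4 lay below the other 4 Maltodextrin replicates in Eif2ak1 (57.9 CPM, others 62.1 to 63.9) and Eif4ebp1 (3.60 CPM, others 4.45 to 4.75). Control replicate 5 lay below the other 4 Control replicates in Eif2ak1 (52.99 CPM, others 54.8 to 55.5). Control replicate 4 lay below the other 4 Control replicates in Eif3d (91.4 CPM, others 97.9 to 98.6). The part of depth or of cell type markers in these values was not tested.

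The effect of treatment differed between the 5 regions, by the treatment by region term in edgeR, for the members below among others. For FT they were Eif4a1 (adjusted p = 7.78e-15), Eif6 (adjusted p = 6.17e-13) and Eif4a2 (adjusted p = 6.42e-12). For Bupropion they were Eif3m (adjusted p = 5.74e-18), Eif3e (adjusted p = 1.93e-17) and Eif4a2 (adjusted p = 3.74e-16). For Desipramine they were Eif5a2 (adjusted p = 9.07e-14), Eif3m (adjusted p = 6.39e-13) and Eif4a1 (adjusted p = 3.51e-12). For Probiotics against Maltodextrin they were Eif4a1 (adjusted p = 1.6e-14), Eif5a (adjusted p = 1.12e-11) and Eif3g (adjusted p = 5.45e-10). For Maltodextrin against Control they were Eif4a1 (adjusted p = 7.53e-17), Eif5a2 (adjusted p = 1.57e-15) and Eif4a2 (adjusted p = 5.43e-14).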

How the results depend on the processing

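Counts of called members stayed within 1.5 times under each alternative run, but their direction moved as given above for library totals and for 10 regions. Of 154 named results, compared with their alternatives 1999 times in all, 144 kept direction and side of the threshold throughout. Being the largest changes or smallest p-values called, they were likely to keep both. Library totals and 10 regions were run for the sum only, where 140 and 131 of all 174 calls of members kept their direction. Opposite signs were found for Eif3m in Maltodextrin with 10 regions summed, at -0.16 (adjusted p = 0.000849), and in Control libraries alone for Eif4enif1 at -0.16 (adjusted p = 0.127), Eif5a2 at 0.23 (adjusted p = 1.33e-06) and Eif3k at 0.17 (adjusted p = 0.00114) in NACShell and Eif4ebp2 in PLC at 0.12 (adjusted p = 0.155). The cause was not tested. Leaving out each replicate in turn, the members called on the sum numbered 35 to 40 for FT, 28 to 32 for Bupropion, 42 to 44 for Desipramine, 26 to 31 for Probiotics and 25 to 31 for Maltodextrin. The pairs called in single regions numbered 158 to 167 for FT, 142 to 153 for Bupropion, 164 to 176 for Desipramine, 102 to 111 for Probiotics and 106 to 115 for Maltodextrin. Members called for the treatment by region term numbered 35 to 40 for FT, 43 to 45 for Bupropion, 35 to 38 for Desipramine, 29 to 33 for Probiotics and 40 to 43 for Maltodextrin. Members called between regions numbered 37 to 40 in CGC, 38 to 41 in mPOA, 41 to 44 in NACShell, 44 to 47 in PLC and 40 to 42 in Raphe. On leaving out a replicate, 1 of the named results moved by over 1.5 times, Eif3j after FT without replicate 1. Among all members, 7 moved that far for FT without replicate 1. Under the other alternatives more named results did, as given above for single genes, such as Eif5 after Bupropion (0.54, and 0.29 with 10 regions summed). With a replicate block between treatments, the members called on the sum numbered 39 for FT, 33 for Bupropion, 44 for Desipramine, 30 for Probiotics and 33 for Maltodextrin. Same-numbered samples did not all correlate over 0.1 (2 of 5 pairs for FT, 4 of 5 pairs for Bupropion, 2 of 5 pairs for Desipramine, 4 of 5 pairs for Probiotics and 3 of 5 pairs for Maltodextrin), so the numbers are not taken as pairs. Without the replicate block, members called for the treatment by region term numbered 29 for FT, 46 for Bupropion, 39 for Desipramine, 37 for Probiotics and 44 for Maltodextrin. Members at few CPM, such as Eif4ebp1, are limited by depth.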

Other observations

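Values of the regions left out of the main comparisons are given without a test. In Desipramine BLA replicate 3, the library with 198260 counts, Eif2b3 stood at 6857 CPM, against 32.6 to 35.8 CPM in the other 4 (a member chosen after its values were seen). In dorDG, Eif4a2 averaged 297 ± 33.7 CPM in Probiotics and 1189 ± 20.8 CPM in Maltodextrin, and the Probiotics group there held 421 CPM of cortical markers, where the other 5 groups held between 740.9 and 824.7 CPM.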
